A study of Mus musculus with 19 samples.

Results

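Transcripts of 10 immune checkpoint and costimulation genes, of 23951 genes in each deposited table, were followed in sorted hippocampal microglia of the mouse: Cd274, Cd80, Cd86, Fgl2, Il4i1, Lag3, Havcr2, Cd22, Cd200r1 and Sirpa. The genes were picked by name with results of these libraries known, and which values led to the choice is not recorded. Their differences between groups are therefore given as a description, with the side of the test's threshold and no p-value, wherever a call was made. The lists of other genes used below were also chosen with earlier results known. Their adjusted p-values describe these libraries and are no independent support. RNA was sequenced in 15 libraries, 3 in each of 5 groups. In the CK-p25 mouse, forebrain excitatory neurons express p25, an activator of Cdk5, after withdrawal of doxycycline, and neurodegeneration follows; CK littermates carry the driver without p25. The 4.5-month groups were CK-p25 PU.1 cKO (CK-p25 with PU.1 fl/fl and Cx3cr1CreER+/-), CK-p25 with Cx3cr1CreER+/- and CK with Cx3cr1CreER+/-. They received tamoxifen at 50 mg/kg on 5 consecutive days when p25 was induced, and the hippocampus was taken 6 weeks later. The 3-month groups were libraries labelled PU.1 cKO (PU.1 fl/fl with Cx3cr1CreER+/-) and libraries labelled control (Cx3cr1CreER+/- alone), collected 1 week after the same tamoxifen course. All 5 groups thus carried the tamoxifen-dependent Cre, inserted at the locus of Cx3cr1, a chemokine receptor gene active in microglia and other myeloid cells, and all were exposed to tamoxifen.

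Immune checkpoints are pairs of surface molecules that restrain or permit the activity of immune cells. PD-L1, the product of Cd274, binds PD-1 on activated lymphocytes and dampens their signalling, whereas CD80 and CD86 on antigen-presenting cells bind CD28, which activates T cells, or CTLA-4, which restrains them. Many of the receptors carry tyrosine motifs in their cytoplasmic tails that recruit the phosphatases SHP-1 and SHP-2 and so set a threshold for activation of the cell that bears them. Microglia, the resident macrophages of the brain, express several of these receptors themselves, among them SIRPα, which binds CD47 on neurons and limits phagocytosis. PU.1, encoded by Spi1, is an ETS-family transcription factor needed for macrophage and microglial development.

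Promoter sequence was available for 6 of the 10 genes (Cd274, Cd80, Cd22, Fgl2, Havcr2 and Il4i1) in RefSeq windows of GRCm38.p6 running from 250 bases before to 50 after the annotated start. They were searched on both strands for GAGGAA, an ETS core with the flank preferred by PU.1, for the interferon-stimulated response element in the form GAAA, any 2 bases, GAAA, and for TTCNNNGAA, the gamma-activated site bound by STAT dimers. The 3 windows that held a match are shown because they bear the letters of a PU.1 or STAT motif, with the matched letters in capitals. The match in Fgl2 is the gamma-activated form, that in Havcr2 is GAGGAA on the gene's strand, and that in Il4i1 is GAGGAA on the opposite strand, read here as its complement.
Fgl2, chr5:21372423-21372722, plus strand: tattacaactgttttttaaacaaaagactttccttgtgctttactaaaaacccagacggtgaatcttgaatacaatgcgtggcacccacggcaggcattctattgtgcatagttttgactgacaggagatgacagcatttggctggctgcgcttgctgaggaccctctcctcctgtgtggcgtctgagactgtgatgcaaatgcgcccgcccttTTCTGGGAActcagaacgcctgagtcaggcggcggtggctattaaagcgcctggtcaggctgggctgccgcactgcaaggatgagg
Il4i1, chr7:44836038-44836337, plus strand: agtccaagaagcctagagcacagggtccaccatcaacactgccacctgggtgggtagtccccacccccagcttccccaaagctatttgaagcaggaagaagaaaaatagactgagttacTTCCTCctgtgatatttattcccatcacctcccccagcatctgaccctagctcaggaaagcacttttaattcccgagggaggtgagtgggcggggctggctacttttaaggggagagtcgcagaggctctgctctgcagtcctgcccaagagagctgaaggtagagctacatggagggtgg
Havcr2, chr11:46454681-46454980, plus strand: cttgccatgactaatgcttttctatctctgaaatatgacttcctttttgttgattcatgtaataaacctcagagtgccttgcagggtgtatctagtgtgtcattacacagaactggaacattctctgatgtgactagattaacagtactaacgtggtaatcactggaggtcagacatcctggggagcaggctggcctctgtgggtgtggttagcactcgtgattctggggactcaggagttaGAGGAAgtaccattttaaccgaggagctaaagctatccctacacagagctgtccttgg
With the annotated start counted as 0, the matches lay at -36 to -28 in Fgl2, at -131 to -126 in Il4i1 and at -8 to -3 in Havcr2. Matches did not overlap each other. Among all 32851 windows of 300 bases in the same table, 28.3% held GAGGAA, 8.30% held TTCNNNGAA and 3.44% held the response element. None of the 6 windows held the response element, which says only that these letters are not in these 300 bases.

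All 10 genes were detected in every library, the lowest value being 1.13 FPKM (fragments per kilobase, scaled for library size). Read numbers were not given in the tables. Steps in the low values put the weight of 1 read within a range of 1.32 times over the 3-month libraries and 1.45 times over the 4.5-month libraries, where CK-p25 replicate 3 was the shallowest; its label also carries a different run prefix from the other 8. The labels do not say whether replicates came from separate mice, so the spread between libraries may be technical. Defining microglia markers summed to 19832 to 22947 FPKM in the CK-p25 PU.1 cKO group, 22272 to 24782 FPKM in CK-p25 and 27731 to 30127 FPKM in CK. At 3 months the same sum was 30227 to 34902 FPKM in libraries labelled PU.1 cKO and 8751 to 16558 FPKM in libraries labelled control. Border macrophage markers summed to 194 to 257 FPKM in libraries labelled PU.1 cKO and 318 to 1107 FPKM in libraries labelled control.

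The targeted gene was read first. Spi1 stood at 165, 152 and 224 FPKM in the CK-p25 PU.1 cKO group, at 251, 208 and 298 FPKM in CK-p25, and at 256, 230 and 251 FPKM in CK. The transcript was thus present in each library of the CK-p25 PU.1 cKO group, the tables hold no measure of recombination itself, and the third CK-p25 PU.1 cKO library lay within the CK-p25 range. The difference between CK-p25 PU.1 cKO and CK-p25 was -0.49 ± 0.17 (log2(FPKM + 1), SE, n = 3 each), with an adjusted p of 0.745 in the limma fit. Against CK, whose libraries were all higher, it was -0.46 ± 0.17 with an adjusted p of 0.0751 in limma; this contrast was past the threshold under quantile normalization (adjusted p = 0.00495), without CK-p25 replicate 3 (adjusted p = 0.0436) and when the third library of the CK-p25 PU.1 cKO group was left out (adjusted p = 0.0226). At 3 months Spi1 stood at 409, 338 and 337 FPKM in libraries labelled PU.1 cKO and at 261, 105 and 248 FPKM in libraries labelled control, a direction against the labels. The difference was 0.92 ± 0.35 and not past the threshold (adjusted p = 0.0853, limma). It was past it under quantile normalization (1.14, adjusted p = 0.0126) and without the second library labelled control (0.50, adjusted p = 0.0459). The source names of these samples, and the names of their columns in the table, also contradict their titles, so each 3-month direction below follows the titles, and the other reading would turn its sign round.

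In CK-p25 microglia the genes for PD-L1, Fgl2, LAG-3, Il4i1 and CD22 were all higher than in CK, between 6.05-fold for Lag3 and 15.5-fold for Cd22 as ratios of means, whereas Cd80 was lower and the gene for its relative CD86 was not past the threshold. Havcr2, Cd200r1 and Sirpa, which were also expressed in CK, differed by 0.07, 0.05 and -0.01 on the log2 scale. The limma threshold was an adjusted p under 0.05 over all genes tested, and 5 of the 10 genes were past it as higher and 1 as lower. Over all 10894 genes tested, 17.6% were higher and 13.7% lower, a split that turned to 45.6% higher among called genes under quantile normalization against 56.3% in the main fit. Against the same CK libraries, CK-p25 PU.1 cKO also had 5 of the 10 genes past the threshold as higher and 1 as lower, the same genes, beside 17.8% higher and 13.3% lower over all genes, and quantile normalization turned that split to 45.9% higher against 57.2%. Because the choice of genes was not independent of these contrasts, nothing is read from the members' share. Markers of other cell types also differed between these groups. The 5 monocyte markers summed to 34.9 to 51.1 FPKM in the CK-p25 PU.1 cKO group, 15.9 to 30.8 FPKM in CK-p25 and 3.87 to 13.4 FPKM in CK. Fn1, which encodes fibronectin, was the 1 of 4 tested monocyte markers past the threshold in CK-p25 against CK (2.17 ± 0.61, adjusted p = 0.0277, limma). It made up 28.0 of 34.9 FPKM in CK-p25 PU.1 cKO replicate 1. Plac8 averaged 8.42 FPKM in CK-p25 and 2.30 FPKM in CK, Ly6c2 3.87 and 1.49 FPKM, and Vcan 0.0614 and 0.0314 FPKM. Ccr2 alone of these markers went the other way, at 3.31 FPKM in CK-p25 and 4.97 FPKM in CK. The 4 astrocyte markers summed to 88.2 to 176 FPKM in the CK-p25 PU.1 cKO group, 80.6 to 278 FPKM in CK-p25 and 44.9 to 60.6 FPKM in CK. Gfap, the intermediate filament gene of astrocytes, was the 1 of 4 tested astrocyte markers past the threshold in CK-p25 against CK (4.02 ± 0.85, adjusted p = 0.00829, limma). Like Fn1, it was picked for mention from these markers after its values were seen. The part of these markers in the values of the 10 genes was not tested. The values per library are shown in the plot of the 4.5-month levels.

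**Figure D1:**
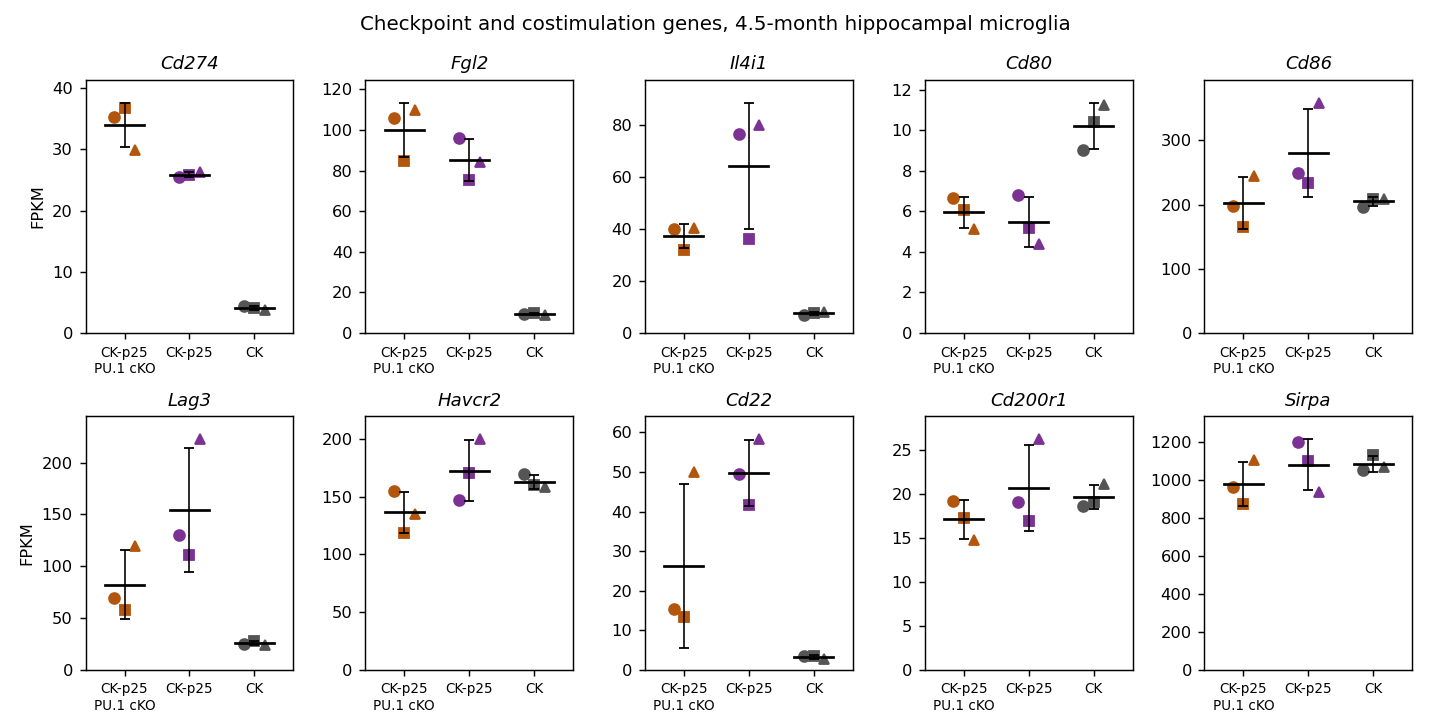
FPKM of the 10 genes (vertical axes, linear from 0, a scale per gene) in each 4.5-month library of CK-p25 PU.1 cKO, CK-p25 and CK; circles, squares and triangles are replicates 1, 2 and 3, long bars the mean and whiskers the SD (n = 3). The 6 CK-p25 and CK-p25 PU.1 cKO libraries lie above the 3 CK libraries for Cd274, Fgl2, Il4i1, Lag3 and Cd22, and below them for Cd80.

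Among the ligands, Cd274 stood at 35.2, 36.8 and 30.0 FPKM in the CK-p25 PU.1 cKO group, at 25.5, 25.8 and 26.3 FPKM in CK-p25, and at 4.35, 4.07 and 3.73 FPKM in CK. No library of either CK-p25 group came near a CK library, and the 3 CK-p25 values were the most tightly grouped of the 10 genes in that group, with an SD of 0.396 FPKM. The difference from CK was 2.41 ± 0.09 in CK-p25 and 2.79 ± 0.09 in CK-p25 PU.1 cKO, both past the threshold; these contrasts share the 3 CK libraries. Cd274 overlaps Plgrkt, a plasminogen receptor gene, in the RefSeq annotation, and neither library kit keeps strand. Plgrkt itself was at 36.6 to 55.8 FPKM in the CK-p25 PU.1 cKO group, 42.3 to 62.0 FPKM in CK-p25 and 14.9 to 22.0 FPKM in CK, and its share in the Cd274 values was not tested. In bulk libraries such as these, a change in the number of cells that express a gene and a change in its RNA per cell cannot be told apart.

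Fgl2 encodes a fibrinogen-like protein that is secreted by regulatory T cells and macrophages and binds the inhibitory Fc receptor FcγRIIB. Its values were 106, 84.8 and 110 FPKM in the CK-p25 PU.1 cKO group, 95.9, 75.6 and 84.1 FPKM in CK-p25, and 9.25, 9.91 and 8.98 FPKM in CK. All 6 libraries of the CK-p25 groups lay far above the 3 CK libraries. The difference from CK was 3.05 ± 0.12 in CK-p25 and 3.28 ± 0.12 in the CK-p25 PU.1 cKO group, the largest of the 10 genes in the second contrast. Ccdc146, the gene within which Fgl2 lies, was at 0.147 FPKM or less in these 9 libraries. Fcgr2b, the receptor gene, was also higher in CK-p25, by 0.91 ± 0.17 (adjusted p = 0.00498, limma).

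The 2 B7 ligands of CD28 and CTLA-4 differed in their relation to CK. Cd80 stood at 6.66, 6.07 and 5.15 FPKM in the CK-p25 PU.1 cKO group, at 6.80, 5.18 and 4.39 FPKM in CK-p25, and at 9.03, 10.4 and 11.3 FPKM in CK. Every library of both CK-p25 groups was below every CK library. Cd86 stood at 197, 164 and 244 FPKM in the CK-p25 PU.1 cKO group, at 248, 233 and 358 FPKM in CK-p25, and at 197, 209 and 209 FPKM in CK. The CK-p25 libraries were above the CK libraries, while those of CK-p25 PU.1 cKO lay on both sides of them. Cd80 differed from CK by -0.81 ± 0.16 in CK-p25 and -0.69 ± 0.16 in CK-p25 PU.1 cKO, both past the threshold, and Cd86 by 0.42 ± 0.19 and -0.04 ± 0.19, neither past it. Without CK-p25 replicate 3, the highest of its group, the Cd86 difference between CK-p25 and CK was 0.23. The FPKM of Cd86 over that of Cd80, a ratio of levels per length within a library, was 29.6, 27.1 and 47.5 in the CK-p25 PU.1 cKO group, 36.5, 45.1 and 81.6 in the CK-p25 group, against 21.8, 20.1 and 18.5 in CK. The ratio was thus higher in each library of both CK-p25 groups than in any CK library.

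Il4i1 encodes a secreted phenylalanine oxidase that consumes amino acids needed by T cells. Its values were 40.0, 32.0 and 40.3 FPKM in the CK-p25 PU.1 cKO group, 76.5, 36.4 and 80.3 FPKM in CK-p25, and 6.91, 7.70 and 8.01 FPKM in CK. In CK-p25 the second library was well below the others and lay inside the CK-p25 PU.1 cKO range. The difference from CK was 2.86 ± 0.27 in CK-p25 and past the threshold; the CK-p25 PU.1 cKO mean was 4.97 times that of CK, also past it (SE 0.27 on the log2 scale). Il4i1 overlaps Tbc1d17, a gene of the Rab GTPase-activating family, which was at 30.9 to 44.6 FPKM in all 9 libraries. Il4i1b also overlaps Il4i1 in the RefSeq annotation and was not listed under that name. The row listed as Nup62-il4i1 stayed at 0.921 FPKM or less, and how reads were split between it and Il4i1 was not tested.

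Among the receptors, Lag3 encodes a CD4-like molecule that binds MHC class II and restrains T cells. It stood at 69.1, 58.0 and 120 FPKM in the CK-p25 PU.1 cKO group, at 130, 110 and 222 FPKM in CK-p25, and at 24.6, 27.6 and 24.3 FPKM in CK. Both CK-p25 groups were clear of CK, and within each the third library was the highest by far. The difference from CK was 2.49 ± 0.31 in CK-p25, and 2.19 without replicate 3; it was 1.58 ± 0.31 in CK-p25 PU.1 cKO. Cd3e, a subunit of the T cell receptor complex, stood at 0.126, 5.09 and 3.63 FPKM in the CK-p25 PU.1 cKO group. It was at 0, 1.39 and 0 FPKM in CK-p25, and at 0, 0.363 and 0.459 FPKM in CK. Cd5, a surface glycoprotein of T cells and of some B cells, was at 9.15, 6.10 and 4.53 FPKM in CK-p25 and 0.544, 0.373 and 0.220 FPKM in CK. It was the 1 of 4 tested T cell markers past the threshold in CK-p25 against CK (2.42 ± 0.33, adjusted p = 0.00105, limma). Both Cd3e and Cd5 were chosen for mention after their values were seen. The part of T cells in the Lag3 values was not tested. The 8 T cell markers summed to 16.9 to 37.0 FPKM in the CK-p25 PU.1 cKO group, 5.95 to 13.7 FPKM in CK-p25 and 1.00 to 6.06 FPKM in CK. In CK-p25, Cd5 alone made up 9.15 of 11.3, 6.10 of 13.7 and 4.53 of 5.95 FPKM in replicates 1, 2 and 3. None of the 8 was at 0 in all 3 libraries of any of these groups. The NK cell markers summed to 1.47 to 19.9 FPKM in the CK-p25 PU.1 cKO group, 1.68 to 6.73 FPKM in CK-p25 and 0.0630 to 2.35 FPKM in CK.

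Cd22 encodes a sialic acid-binding lectin known from B cells, where it recruits SHP-1 to damp B cell receptor signalling, and reported in mouse microglia as a brake on phagocytosis. It stood at 15.4, 13.2 and 50.0 FPKM in the CK-p25 PU.1 cKO group, at 49.5, 41.6 and 58.2 FPKM in CK-p25, and at 3.57, 3.43 and 2.65 FPKM in CK. All libraries of both CK-p25 groups were above CK, and the third CK-p25 PU.1 cKO library lay within the CK-p25 range while the other two did not. The difference from CK was 3.58 ± 0.43 in CK-p25, the largest of the 10 genes there, and 2.44 ± 0.43 in the CK-p25 PU.1 cKO group. Pax5, which encodes a transcription factor that defines B cells, was at 0 in all 15 libraries. The 6 B cell markers summed to 3.23 to 22.2 FPKM in the CK-p25 PU.1 cKO group, 15.6 to 21.0 FPKM in CK-p25 and 26.5 to 32.2 FPKM in CK, nearly all of it from Cd79b. Cd79b, a chain of the B cell receptor complex, was at 3.12, 3.89 and 21.8 FPKM in the CK-p25 PU.1 cKO group, so the third library that was high in Cd22 was high in Cd79b as well; in CK it was at 26.2 to 31.9 FPKM, where Cd22 was at its lowest.

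The other 3 receptors were close to the CK level. Havcr2, which encodes TIM-3, a receptor for galectin-9 and other ligands, stood at 155, 119 and 135 FPKM in the CK-p25 PU.1 cKO group, at 147, 170 and 199 FPKM in CK-p25, and at 169, 160 and 158 FPKM in CK. The CK-p25 range enclosed that of CK, and the CK-p25 PU.1 cKO libraries were all below CK without the difference of -0.26 ± 0.13 being past the threshold; under quantile normalization that difference was -0.56 and past it. Cd200r1, whose product receives the neuronal signal CD200, stood at 19.2, 17.3 and 14.7 FPKM in the CK-p25 PU.1 cKO group, at 19.0, 16.8 and 26.1 FPKM in CK-p25, and at 18.6, 19.1 and 21.1 FPKM in CK. Sirpa stood at 962, 873 and 1107 FPKM in the CK-p25 PU.1 cKO group, at 1204, 1101 and 937 FPKM in CK-p25, and at 1054, 1133 and 1067 FPKM in CK. The groups of both genes overlapped. Quantile normalization moved Sirpa to -0.47 in CK-p25 and to -0.45 in CK-p25 PU.1 cKO against CK, past the threshold, whereas the main differences were -0.01 ± 0.12 and -0.15 ± 0.12. The near copies Sirpb1a and Sirpb1b, which could share reads with Sirpa, were at 1.31 FPKM or less in these libraries.

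The order of the 10 genes by mean level, FPKM being per length, was headed in each 4.5-month group by Sirpa, Cd86 and Havcr2. In CK-p25 PU.1 cKO, Fgl2 (100.1 ± 13.4 FPKM) and Lag3 (82.3 ± 33.0 FPKM) came next and did not differ beyond their SDs (n = 3 each). In CK-p25, Havcr2 (172 ± 26.3 FPKM) and Lag3 (154 ± 59.9 FPKM) overlapped, and Cd80 (5.46 ± 1.23 FPKM) was last, below Cd200r1 (20.7 ± 4.86 FPKM). In CK, Lag3 (25.5 ± 1.81 FPKM) was the fourth, Cd80 (10.2 ± 1.13 FPKM) and Fgl2 (9.38 ± 0.478 FPKM) overlapped within their SDs, and Cd274 (4.05 ± 0.312 FPKM) and Cd22 (3.22 ± 0.493 FPKM) came last.

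The comparison of CK-p25 PU.1 cKO with CK-p25 addresses how these genes differ by PU.1 genotype, as labelled, in CK-p25 mice. Cd274 was the 1 gene of the 10 whose libraries did not overlap between these groups, at a mean of 34.0 FPKM in the CK-p25 PU.1 cKO group and 25.9 FPKM in CK-p25; 9.38% of all genes tested did not overlap. Lag3, Cd22, Il4i1, Cd86 and Havcr2 had lower means in CK-p25 PU.1 cKO, at 0.534, 0.527, 0.581, 0.721 and 0.791 times the CK-p25 mean. None of the 10 was past the threshold in limma, and neither was any gene of the table (0% called). At an unadjusted p under 0.05 there were 6 of the 10, the 5 just named that were lower and Cd274 that was higher, and 671 of all genes (6.16%). As in the other contrasts, nothing is read from the share of these 10 genes, which were picked with results known.

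The differences with 95% intervals show how wide the range of compatible values was. These intervals were taken gene by gene and were not adjusted for the number of genes tested. Cd274 was higher by 0.38, with an interval of 0.16 to 0.59 and an adjusted p of 0.745 in limma. Lag3 differed by -0.90 (-1.62 to -0.19), Cd22 by -1.14 (-2.12 to -0.16) and Il4i1 by -0.69 (-1.32 to -0.06), each with the same adjusted p. Cd86 differed by -0.46 (-0.89 to -0.03) and Havcr2 by -0.33 (-0.64 to -0.03), again with that adjusted p. The intervals of Fgl2 (-0.06 to 0.51), Cd80 (-0.24 to 0.48), Cd200r1 (-0.62 to 0.13) and Sirpa (-0.42 to 0.14) all included 0. The third CK-p25 PU.1 cKO library, which had the highest Spi1 of its group, also had the highest Lag3, Cd22, Cd86, Fgl2, Il4i1 and Sirpa and the lowest Cd274, Cd80 and Cd200r1 of its group, though for Il4i1 the margin over replicate 1 was small. Without it, 2 libraries against 3, Cd22 differed by -1.72 and would be past the threshold, and Lag3 differed by -1.20 and would not; this library was singled out after its values were seen. The part of Spi1 level in these differences was not tested.

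**Figure D2:**
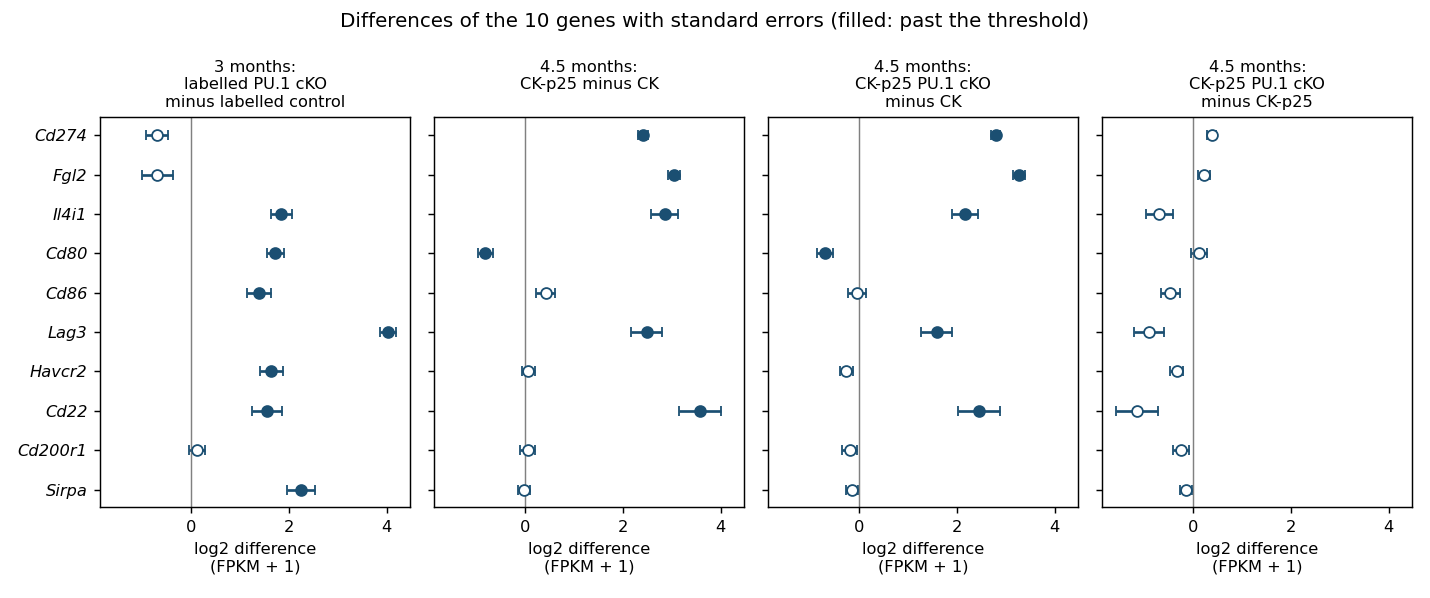
Differences of the 10 genes on the log2(FPKM + 1) scale (horizontal axis) with standard errors from limma, in the 4 comparisons; filled points are past an adjusted p of 0.05 and open points are not. In CK-p25 against CK, Cd22 is farthest to the right at 3.58 and Cd80 alone is filled on the left at -0.81; in CK-p25 PU.1 cKO against CK-p25 every point is open.

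Receptors and ligands related to the 10 genes were read from 6 lists. Over all genes tested, 17.6% were higher and 13.7% lower in CK-p25 than in CK. Beside these shares nothing is read from the counts of the 6 lists, which were chosen with earlier results known. Of the CD28-B7 list, 6 of 12 genes were tested; 1 was higher and 2 were lower in CK-p25 than in CK. Pdcd1, which encodes PD-1, the receptor of PD-L1, stood at 117, 98.1 and 95.6 FPKM in the CK-p25 PU.1 cKO group, at 160, 82.6 and 138 FPKM in CK-p25, and at 17.2, 6.65 and 7.77 FPKM in CK. Both CK-p25 groups lay above CK, as for Cd274. The difference between CK-p25 and CK was 3.53 ± 0.35 (adjusted p = 0.000223, limma), and that between CK-p25 PU.1 cKO and CK was 3.29 ± 0.35 (adjusted p = 0.000299, limma). The receptor and its ligand were thus both higher in the same sorted fraction, as the plot of Pdcd1 against Cd274 shows, while Pdcd1lg2, the gene for the other PD-1 ligand, was at 0.501 FPKM or less in these libraries.

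**Figure D3:**
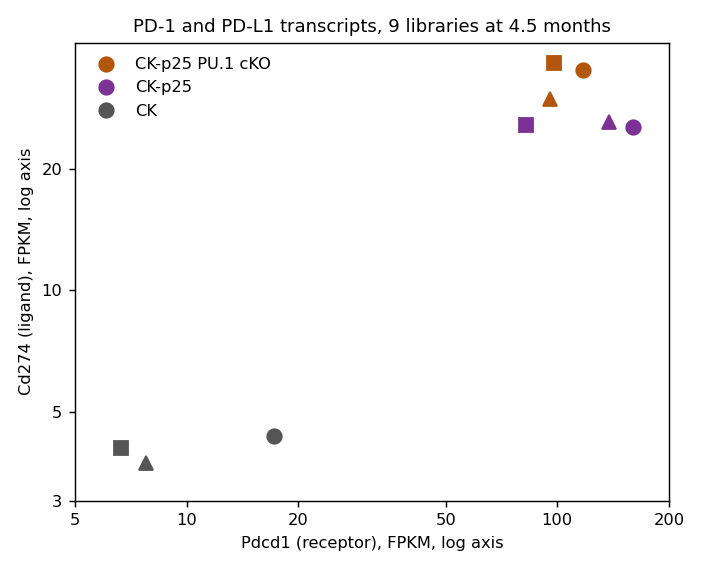
Pdcd1 (horizontal, FPKM, log axis) against Cd274 (vertical, FPKM, log axis) in the 9 libraries at 4.5 months; circles, squares and triangles are replicates 1, 2 and 3 and colour gives the group. The 6 CK-p25 PU.1 cKO and CK-p25 libraries form a cloud at 82.6 to 160 FPKM Pdcd1, apart from the 3 CK libraries at 6.65 to 17.2 FPKM.

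Besides Cd80, 2 other B7 family genes fell in CK-p25. Cd276, which encodes B7-H3, was at 7.65 to 9.63 FPKM in CK-p25 and 18.3 to 30.9 FPKM in CK, a difference of -1.30 ± 0.20 (adjusted p = 0.00183, limma). The gene for VISTA, an inhibitory B7 relative that is abundant in microglia, is listed as 4632428N05Rik and stood at 395, 386 and 224 FPKM in CK-p25 and at 654, 675 and 657 FPKM in CK, a difference of -1.03 ± 0.20 (adjusted p = 0.00565, limma). The level of the VISTA gene in CK-p25 was thus below CK in every library and lowest in replicate 3. Ctla4 was not tested, its means being 0.0408 FPKM or less in all 3 groups. Between CK-p25 PU.1 cKO and CK-p25 the 2 largest differences of the list were Cd28, the costimulatory receptor of T cells, at 0.92 ± 0.43 and Tnfrsf14 at -0.61 ± 0.67, with adjusted p-values of 0.745 and 0.792 (limma).

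Of the binding partners of the 10 products, 11 of 14 genes were tested in the 4.5-month table; 2 were higher and 1 was lower in CK-p25. Those past the threshold were Fcgr2b, Thbs1 (a CD47-binding matrix protein) at 1.46 ± 0.26 with an adjusted p of 0.00412, and Ceacam1, a ligand proposed for TIM-3, at -1.10 ± 0.14 with an adjusted p of 0.000670 (limma). Thbs1 was listed for its binding to CD47, which is itself not among the 10 products. The largest differences were those of the MHC class II genes that encode the ligand of LAG-3. H2-Aa stood at 102, 198 and 569 FPKM in the CK-p25 PU.1 cKO group, at 666, 403 and 482 FPKM in CK-p25, and at 2.29, 166 and 101 FPKM in CK. All 3 CK-p25 libraries were above CK, and CK replicate 1 was far below the other CK libraries. H2-Aa differed by 3.73 ± 1.35 (adjusted p = 0.0681), H2-Ab1 by 2.93 ± 0.98 (adjusted p = 0.0517) and H2-Eb1 by 2.91 ± 1.30 (adjusted p = 0.125), none past the threshold in limma. Leaving out CK replicate 2 took H2-Aa to 4.79 (adjusted p = 0.0497) and H2-Ab1 to 3.72 (adjusted p = 0.0389) in limma. Leaving out single libraries in turn moved their differences between 1.96 and 4.79 and between 1.71 and 3.72. The low ends came without CK replicate 1 and were not past the threshold. Border macrophage markers, whose cells are known to express class II genes, summed to 66.5 to 117 FPKM in CK-p25 and to 5.41, 214 and 263 FPKM in the 3 CK libraries; their part was not tested. Cd47, the ligand of SIRPα, was at 116 to 123 FPKM in CK-p25 and 97.6 to 142 FPKM in CK, and Cd200, the ligand of CD200R1, was below 1 FPKM on average in both.

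Of the inhibitory signalling list, 10 of 10 genes were tested; 1 was higher and 2 were lower in CK-p25 than in CK. Ptpn6, which encodes the phosphatase SHP-1, stood at 343, 284 and 479 FPKM in CK-p25 and at 178, 191 and 199 FPKM in CK, a difference of 0.93 ± 0.17 (adjusted p = 0.00494, limma). Quantile normalization lowered it to 0.48 (adjusted p = 0.0696). Csk, a kinase that inhibits Src-family kinases, was lower by -0.83 ± 0.09 (adjusted p = 0.000361, limma). Inpp5d, which encodes the lipid phosphatase SHIP1, was lower by -0.59 ± 0.16 (adjusted p = 0.0270, limma); that call ended when any 1 CK library was left out, at adjusted p-values of 0.0655 to 0.0935, and in a fit of the compared libraries alone (adjusted p = 0.0756). In CK-p25 PU.1 cKO against CK-p25, Ptpn11 (-0.24 ± 0.19) and Rasa1 (-0.21 ± 0.15) led this list and were not past the threshold (adjusted p = 0.758 and 0.745, limma).

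Of the nectin and SLAM checkpoint list, 6 of 9 genes were tested; 2 were higher and 1 was lower in CK-p25. Cd244 and Cd48, a receptor and its ligand of the SLAM family, were both higher. Cd244 averaged 3.92 ± 1.12 FPKM in CK-p25 and 0.595 ± 0.0976 FPKM in CK (SD, n = 3 each), a difference of 1.60 ± 0.20 with an adjusted p of 0.000782 in limma. Cd48 stood at 414, 344 and 523 FPKM in CK-p25 and at 166, 142 and 151 FPKM in CK, a difference of 1.46 ± 0.16 with an adjusted p of 0.000332 in limma. Cd96, a receptor of T and NK cells, differed by 1.57 ± 0.52 (adjusted p = 0.0529, limma) and by 2.21 (adjusted p = 0.00242) without CK-p25 replicate 2. Tigit, a receptor of the nectin family, averaged 0.863 FPKM in CK-p25 and 2.23 FPKM in CK, a difference of -0.80 ± 0.20 (adjusted p = 0.0166, limma); it was chosen for mention after its values were seen. In CK-p25 PU.1 cKO against CK-p25, Cd96 (-1.03 ± 0.52) and Pvrl2 (-0.56 ± 0.21) led the list, both at an adjusted p of 0.745 in limma.

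Of 10 genes around amino acid catabolism with immune roles, among them the aryl hydrocarbon receptor gene Ahr and its repressor Ahrr, which are no enzymes, 1 was expressed highly enough to be tested at 4.5 months. This was Kynu, which encodes kynureninase of the tryptophan pathway, at 2.05 ± 0.546 FPKM in CK-p25 and 0.240 ± 0.126 FPKM in CK (SD, n = 3 each), a difference of 1.29 ± 0.23 (adjusted p = 0.00351, limma). Between CK-p25 PU.1 cKO and CK-p25 it differed by 0.08 ± 0.23 (adjusted p = 0.917, limma).

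Near relatives of the members were read for shared reads. Of 16 genes found in the table, 7 were tested; 2 were higher and 2 were lower in CK-p25. Cd200r4, an activating relative of Cd200r1, stood at 35.1, 33.5 and 20.1 FPKM in the CK-p25 PU.1 cKO group, at 28.0, 22.2 and 25.5 FPKM in CK-p25, and at 0.770, 1.26 and 1.20 FPKM in CK. It was past the threshold by 3.66 ± 0.21 (adjusted p = 2.07e-05, limma), while the inhibitory Cd200r1 was level across the groups. Siglece, an inhibitory lectin related to Cd22, moved the other way from Cd22, at 15.2, 13.9 and 15.8 FPKM in CK-p25 and 70.5, 75.3 and 74.8 FPKM in CK (-2.22 ± 0.37, adjusted p = 0.00286, limma). In CK-p25 PU.1 cKO it stood at 4.55, 5.46 and 16.7 FPKM, so replicate 3 was again near CK-p25; without that library its difference from CK-p25 was -1.41 (adjusted p = 0.00671, limma) against -0.89 ± 0.37 with it. Siglec1, the sialoadhesin of border macrophages and interferon-exposed cells, was higher in CK-p25 by 1.62 ± 0.42 (adjusted p = 0.0198, limma). That call ended in a fit of the compared libraries alone (adjusted p = 0.0595) and without CK replicate 1, CK-p25 replicate 1 or CK-p25 replicate 2, at adjusted p-values of 0.0560 to 0.0591. Cd4, the paralog of Lag3, was at 8.19 FPKM or less in all 9 libraries and differed by 1.05 ± 0.52 between CK-p25 PU.1 cKO and CK-p25 (adjusted p = 0.745, limma).

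At 3 months the genes split differently. Lag3, Sirpa, Il4i1, Cd80, Cd22, Havcr2 and Cd86 were higher in libraries labelled PU.1 cKO than in libraries labelled control, by 2.59-fold for Cd86 to 25.8-fold for Lag3 as ratios of means, and Cd274 and Fgl2 had lower means, at 0.568 and 0.613 times the labelled control mean. The other reading of the labels would turn each of these directions round. Past the threshold were 7 of the 10 as higher and 0 as lower, beside 12.4% and 17.8% of the 10845 genes tested at 3 months; quantile normalization turned the split among called genes to 53.0% higher, against 41.1%. Again nothing is read from the members' share.

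**Figure D4:**
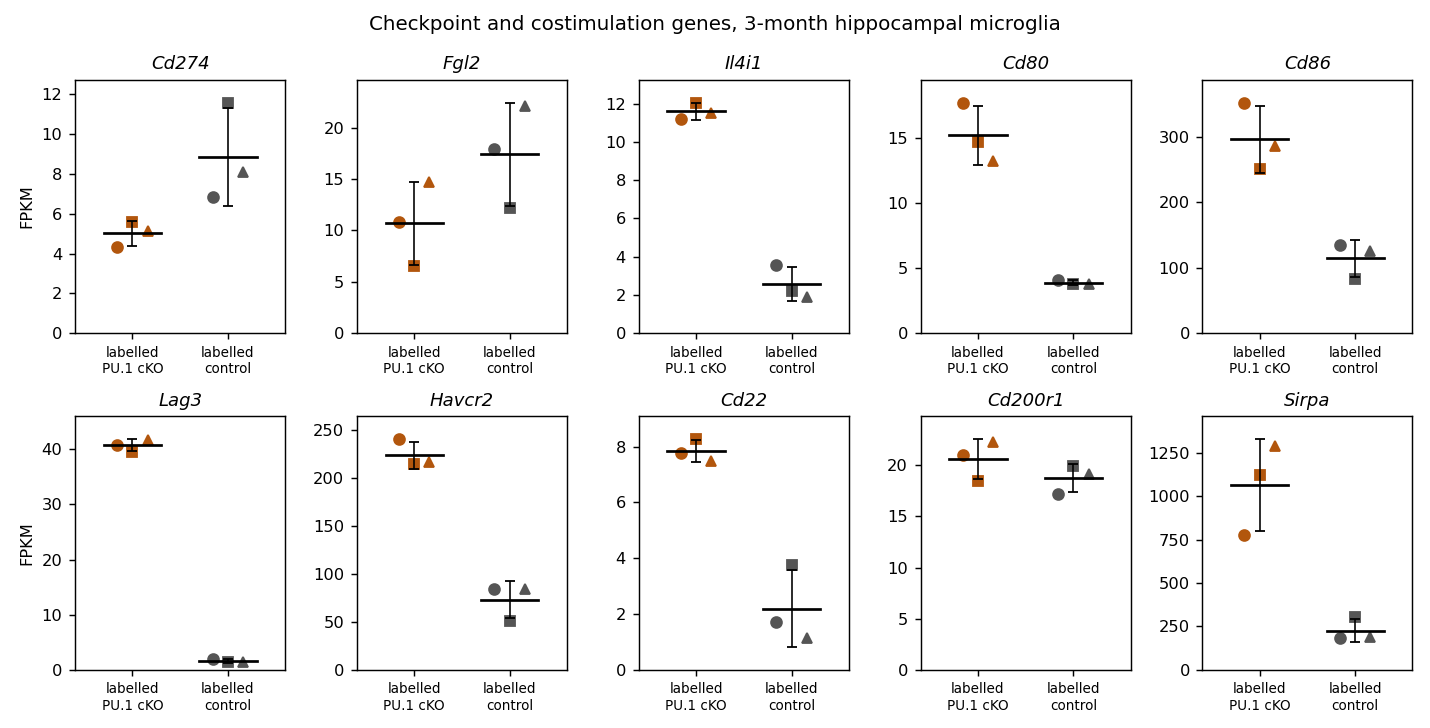
FPKM of the 10 genes (vertical axes, linear from 0, a scale per gene) in each 3-month library labelled PU.1 cKO and labelled control; circles, squares and triangles are replicates 1, 2 and 3, long bars the mean and whiskers the SD (n = 3). The groups do not overlap for Lag3, at 39.6 to 41.7 FPKM and 1.34 to 1.94 FPKM, while those of Cd200r1 and Fgl2 overlap.

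Lag3 stood at 40.9, 39.6 and 41.7 FPKM in libraries labelled PU.1 cKO and at 1.94, 1.34 and 1.45 FPKM in libraries labelled control. Its libraries were tightly grouped on both sides, and the difference was 4.02 ± 0.17, moving between 3.96 and 4.12 when single libraries were left out. The 4.5-month CK libraries, at 24.3 to 27.6 FPKM in a table normalized apart from this one, are given for orientation and were not compared. Sirpa stood at 777, 1124 and 1292 FPKM in libraries labelled PU.1 cKO and at 182, 302 and 191 FPKM in libraries labelled control, a difference of 2.24 ± 0.29 past the threshold. Havcr2 stood at 240, 215 and 216 FPKM in libraries labelled PU.1 cKO and at 84.0, 50.5 and 83.7 FPKM in libraries labelled control, a difference of 1.64 ± 0.23. These receptor genes moved in the same direction as the summed microglia markers given above; the part of that sum in them was not tested.

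Among the ligands and the enzyme, Cd80 stood at 17.8, 14.7 and 13.3 FPKM in libraries labelled PU.1 cKO and at 4.13, 3.81 and 3.75 FPKM in libraries labelled control (1.72 ± 0.18), and Cd86 at 353, 252 and 286 FPKM in libraries labelled PU.1 cKO and at 135, 82.6 and 126 FPKM in libraries labelled control (1.38 ± 0.24). Cd80 and Cd86 thus moved together at this age, and their ratio was 19.9, 17.1 and 21.5 in libraries labelled PU.1 cKO and 32.8, 21.7 and 33.5 in libraries labelled control. Il4i1 stood at 11.2, 12.04 and 11.5 FPKM in libraries labelled PU.1 cKO and at 3.56, 2.20 and 1.90 FPKM in libraries labelled control (1.85 ± 0.22). Cd22 stood at 7.76, 8.26 and 7.49 FPKM in libraries labelled PU.1 cKO and at 1.70, 3.75 and 1.13 FPKM in libraries labelled control, a difference of 1.55 ± 0.31. Cd22 was past the threshold with all libraries and not past it without the second library labelled PU.1 cKO. Cd274 stood at 4.35, 5.59 and 5.13 FPKM in libraries labelled PU.1 cKO and at 6.85, 11.6 and 8.09 FPKM in libraries labelled control; the groups did not overlap, and the difference of -0.69 ± 0.23 was not past the threshold. Fgl2 stood at 10.8, 6.54 and 14.7 FPKM in libraries labelled PU.1 cKO and at 17.9, 12.1 and 22.1 FPKM in libraries labelled control, groups that overlapped (-0.68 ± 0.32). Cd200r1 was the most even gene, at 18.5 to 22.3 FPKM in libraries labelled PU.1 cKO and 17.2 to 19.9 FPKM in libraries labelled control (0.13 ± 0.16).

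The related lists at 3 months held calls in both directions, given here by the titles of the samples and turned round under the other reading. Higher and lower calls numbered 2 and 3 of 6 tested for the CD28-B7 list, 2 and 2 of 12 for binding partners, 3 and 2 of 10 for inhibitory signalling, 2 and 1 of 5 for nectin and SLAM genes, 0 and 0 of 3 for amino acid regulators and 2 and 2 of 9 for near relatives. Over all genes tested at 3 months, 12.4% were higher and 17.8% lower, and nothing is read from the counts of the lists. Pdcd1 stood at 10.4, 10.4 and 13.4 FPKM in libraries labelled PU.1 cKO and at 22.5, 20.9 and 33.9 FPKM in libraries labelled control. It was lower, as was the mean of its ligand gene Cd274, by -1.09 ± 0.23 (adjusted p = 0.0119, limma); the call ended without the first or the second library labelled PU.1 cKO, at 0.0520 and 0.0668. Monocyte markers summed to 6.30 to 31.3 FPKM in libraries labelled PU.1 cKO and 40.2 to 168 FPKM in libraries labelled control, and their part in these differences was not tested.

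The gene of the table most like each of the 10 in its pattern over the 9 libraries at 4.5 months was found by Pearson's r of log2(FPKM + 1) among 10884 genes, as a description over libraries that share group and depth. For the genes that were higher in CK-p25, these were Cpq, a peptidase gene, for Cd274 (0.997), H2-K1, an MHC class I gene, for Fgl2 (0.997), Arrdc4 for Il4i1 (0.996), Sord, sorbitol dehydrogenase, for Cd22 (0.996) and Slc11a1, the phagosomal metal transporter NRAMP1, for Lag3 (0.994). H2-K1 averaged 2085 FPKM in the CK-p25 PU.1 cKO group, 1835 FPKM in CK-p25 and 191 FPKM in CK, with CK-p25 PU.1 cKO above CK-p25 as for Fgl2. Slc11a1 averaged 248 FPKM in the CK-p25 PU.1 cKO group, 329 FPKM in CK-p25 and 152 FPKM in CK, between which CK-p25 PU.1 cKO lay as for Lag3. For the others the values were lower: Rbm14 for Cd80 (0.977), Gripap1 for Cd86 (0.973), Eapp for Cd200r1 (0.969), Sdk1 for Sirpa (0.947) and Siah1b for Havcr2 (0.928). Each r was the highest of 10884 over 9 libraries, and how high unrelated genes would reach was not tested. The group means of Sdk1 (0.976 to 2.02 FPKM) and Siah1b (1.41 to 1.96 FPKM) lay near the filter of 1 FPKM.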

How the data were processed

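RNA of hippocampal microglia, sorted for CD11b and CD45, was made into libraries with SMART-Seq v4 and Nextera XT kits, per the labels' protocols. The authors deposited 2 tables of FPKM values; TopHat, Bowtie, Cufflinks 2.0.0 and mm9 are named in the submitters' processing notes. Columns were matched to samples by the description in the labels; at 3 months the columns named for PU.1 thereby go to samples titled as controls, and those named for CX3CR1 to samples titled as PU.1 cKO. FPKM is not a count, so limma 3.58.1 (R 4.3.3, trended variance) was fitted to log2(FPKM + 1) on genes averaging 1 FPKM or more, each table apart, with Benjamini-Hochberg adjustment over all genes tested and a threshold of 0.05. The 9 libraries at 4.5 months shared 1 model. Fold changes on this scale understate those of low genes. The scripts were tested on simulated data. The members and lists were chosen with earlier results of these data known. Text names all members and, per list, the 3 genes with the largest difference in CK-p25 against CK and the 2 in CK-p25 PU.1 cKO against CK-p25; genes outside this rule were chosen after their values were seen. Alternatives were the pseudocount, filter, scaling, model, replicate block and leaving out each library. A further 4 samples of PU.1 chromatin immunoprecipitation and input were not analysed here. Promoters are RefSeq windows of GRCm38.p6; no FPKM is tied to their coordinates.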

Additional observations from a re-analysis of the deposited data

How the results depend on the processing

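Over all alternatives, 703 values of the 10 genes kept their direction and side of the threshold, 7 moved past it, 1 fell short and 9 changed sign, none of these last being past it. Under quantile normalization, the difference between CK-p25 and CK was -0.39 for Spi1, -0.26 for Havcr2 and -0.029 for Cd200r1; the cause was not tested. Leaving out single libraries, the same comparison ran from -0.10 to 0.16 for Spi1, from -0.038 to 0.18 for Havcr2, from -0.12 to 0.18 for Cd200r1 and from -0.094 to 0.087 for Sirpa, with sign changes without CK-p25 replicate 3 and, for Spi1 and Sirpa, without CK replicate 2. Cd86 ran from -0.19 to 0.10 in CK-p25 PU.1 cKO against CK. Against CK-p25, Sirpa was 0.028 under quantile normalization, and without single libraries Cd80 ran from -0.0024 to 0.26 and Kynu from -0.043 to 0.28. Between CK-p25 and CK, H2-Ab1 was past the threshold under both smaller pseudocounts, a filter at 5 FPKM, the replicate block and the dropping of genes described below, and Cd96 under both smaller pseudocounts and that dropping.

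Members past the threshold as lower at 3 months numbered 1 with a pseudocount of 0.1 (Cd274, -0.78) and 2 under the replicate block (Cd274 and Fgl2), against 0; under quantile normalization they numbered 2 in CK-p25 against CK and 3 in CK-p25 PU.1 cKO against CK, against 1 in each. At 3 months 2086 genes of the table were higher under quantile normalization, and leaving out libraries gave 562 to 1974 higher and 889 to 2678 lower, against 1344 and 1925. In CK-p25 against CK, 932 to 2177 genes were lower without single libraries, against 1490. In CK-p25 PU.1 cKO against CK, 898 to 2430 were lower without single libraries and 2398 in a fit of the compared libraries alone, against 1447. Between CK-p25 PU.1 cKO and CK-p25, against 0 in each direction, 1 gene was higher and 1 lower with no filter, 1 was higher under quantile normalization and 2 in a fit of the compared libraries; without single libraries 0 to 13 were higher and 0 to 14 lower, and members past the threshold as lower numbered 0 to 1. The number in the labels is shared across groups. The correlation of same-numbered libraries ran from -0.049 to 0.166 and that of differently numbered ones from -0.264 to 0.154. With 3 libraries a group, these values cannot settle whether the number marks a pairing. The replicate block left the other counts of members as they were, and took Spi1 in CK-p25 PU.1 cKO against CK past the threshold (adjusted p = 0.0237, limma). Dropping genes that were 0 in some library yet reached 100 FPKM elsewhere, an alternative chosen after seeing the data, changed no member's call. Depth sets the error of low genes such as Cd22 and Cd274 in CK, and read numbers were not given.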
